A study of Mus musculus with 6 samples.

Results

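The genes described here mark fetal-type B cell formation and the B-1 lineage. They comprise the RNA-binding proteins Lin28b, Igf2bp1, Igf2bp2 and Igf2bp3, the DNA-binding architectural proteins Hmga1 and Hmga2, the transcription factors Arid3a, Bhlhe41 and Zbtb32, and the surface receptor Cd5. They were chosen by gene symbol, 10 in all, and 8 of them were measured by 9 probe sets that carry exactly 1 gene symbol, out of 19938 genes and 35556 probe sets. Igf2bp2 and Hmga1 were not analysed here, since the gene table used pairs no probe set with their symbols. Expression was measured on 6 arrays, each from 1 pool of sorted RAG2-GFP+ B lineage cells, to compare 3 pools from the lamina propria of the small intestine with 3 pools from the bone marrow. Lamina propria is the connective tissue under the gut epithelium, and bone marrow is the main site of B cell formation after birth.

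All pools came from mice of the strain RAG2-GFP/129Sve aged 17 to 25 days and kept in a specific pathogen free facility, with 8 to 12 mice in each experiment. The green fluorescent reporter of Rag2, which encodes a subunit of the enzyme that rearranges antigen receptor genes, is carried by both groups. Fluorescence marks cells that rearrange these genes or did so recently, and which other surface markers the sort used is not stated in the labels. Pools of animals are the replicates, so p-values measure the spread between pools. B lineage markers were present in both tissues, with members moving apart. The median level of 9 measured B lineage genes was 10.04, 9.34 and 9.77 (log2) in lamina propria pools 1, 2 and 3, against 9.99, 9.95 and 9.43 in the bone marrow pools. Of the 9, 7 had a negative difference, as did 6452 of all 19938 genes and 83.1% of those with a marrow mean over 7, where most of the list lies. None of the 9 passed over all genes. Without overlap 1 of the 9 lay higher, Cd22 (0.43), and 0 lower, beside 14.8% and 7.27% of all genes. Cd79b, a chain of the B cell receptor complex, differed from the marrow mean by 0.56, -2.40 and 0.27 in pools 1, 2 and 3. Pax5, the factor that fixes B cell identity, differed by -1.83, -0.24 and 0.20 in these pools. Ighm, the constant region of IgM, was called lower without pool 3 (limma adjusted p = 0.0372), as were 12.1% of all genes. In pool 3 Ighm instead lay above every marrow pool, 0.58 above their mean. Over all pools it differed by -0.33 (limma adjusted p = 0.576).

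Lamina propria pools 1 and 2 stood apart from the other arrays. They correlated across genes at 0.766 to 0.828 with the marrow arrays, while pool 3 correlated with them at 0.954 to 0.966, and genes are not independent replicates. The spread of values also differed, with an interquartile range of 2.00 and 1.94 in these pools, against 2.41 to 2.47 in the other arrays. In pools 1 and 2, genes at a low marrow level lay higher and genes at a high marrow level lay lower than in marrow. For the 4241 genes with a marrow mean of 4 to 5, the median difference from marrow was 0.52 in pool 1, 0.54 in pool 2 and 0.01 in pool 3. For the 3642 genes with a marrow mean over 7 it was -1.05, -1.15 and -0.04. Over all pools, differences were positive for 94.8% of genes with a marrow mean of 3 to 4, 92.2% at 4 to 5, 80.3% at 5 to 6 and 45.8% at 6 to 7, and negative for 83.1% over 7. Every difference below is therefore given for all pools and for pool 3 by itself. The number of arrays limits the precision.

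B cells are made in waves. In the fetal liver, LIN28B holds back maturation of the let-7 microRNAs, which keeps let-7 targets such as the IGF2BP proteins, HMGA2 and ARID3A expressed and favours B-1 cells. After birth LIN28B declines, let-7 accumulates and the marrow turns mainly to conventional B-2 cells. B-1 cells seed the body cavities and contribute natural antibody and gut IgA.

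Igf2bp3, the fetal-type member of the insulin-like growth factor 2 mRNA-binding family, was the member that lay lower in every lamina propria pool than in every marrow pool. Its values were 5.40, 5.29 and 5.49 in lamina propria pools 1, 2 and 3, against 6.56, 6.65 and 6.52 in the bone marrow pools (log2). The pools of each tissue lay close together and the tissues were separated by a wide gap. The lamina propria mean was 5.39 ± 0.10 and the marrow mean was 6.58 ± 0.07 (SD, n = 3 each). The log2 difference was -1.19 (95% interval -1.62 to -0.75), which is 2.28-fold lower in the lamina propria. It missed the threshold of 0.05 over all genes (limma adjusted p = 0.172). Ordered by p over all 19938 genes, Igf2bp3 stood at place 36. In bulk RNA, fewer cells that express the gene and less RNA per cell cannot be told apart.

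The lower Igf2bp3 level was seen in each lamina propria pool on its own, by -1.18 in pool 1, -1.29 in pool 2 and -1.09 in pool 3 against the marrow mean. Pool 3, the array most like marrow, thus gave nearly the same difference (95% interval -1.52 to -0.65) as the pools that stood apart. With pool 3 as the only lamina propria array it did not pass over all genes (limma adjusted p = 0.363), a comparison in which the single array is taken to vary as marrow arrays do. Over all genes, 1.58% lay at least 1 below the marrow mean in pool 3, and 1.20% had a lower difference there than Igf2bp3. Without pool 3, Igf2bp3 passed (limma adjusted p = 0.0101), in a comparison where 12.1% of all genes were called lower. Of the 3450 genes with a marrow mean of 6 to 7, as Igf2bp3 has, 6.09% had a lower difference over all pools and 1.65% in pool 3.

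**Figure D1:**
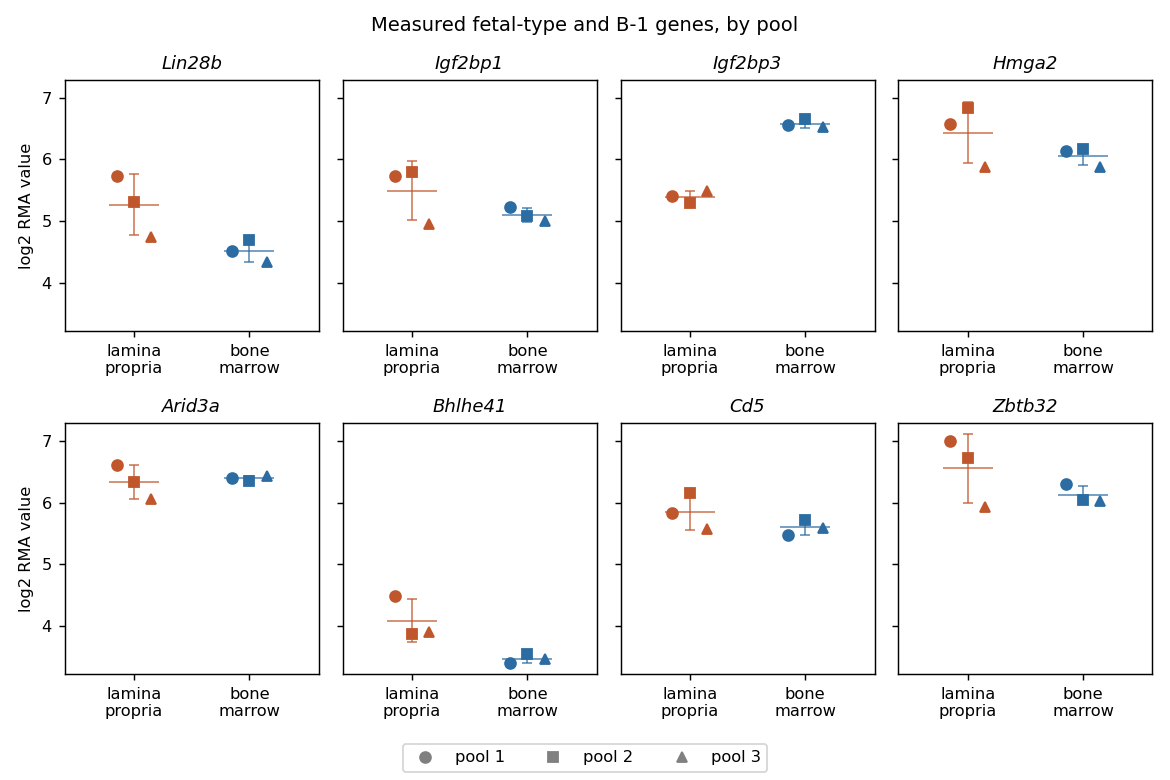
Log2 RMA values of the 8 measured genes in the 3 lamina propria pools (left in each panel) and the 3 bone marrow pools (right), with symbols for the pool number, horizontal bars at the means and whiskers of 1 SD. Igf2bp3 runs from 5.29 to 5.49 in the lamina propria and from 6.52 to 6.65 in the bone marrow, while Igf2bp1, Hmga2, Cd5 and Zbtb32 lie above every marrow pool in lamina propria pools 1 and 2 and not in pool 3.

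No member was called over all genes, and neither was any other gene. Of 19938 genes, 0% were called higher and 0% lower (limma, adjusted p under 0.05), with 5.53% higher and 8.15% lower at an unadjusted p under 0.05. At that unadjusted level 2 members lay higher, Lin28b and Bhlhe41, and 1 lower, Igf2bp3. The same 3 genes were those whose tissues did not overlap. Over all genes 14.8% were higher without overlap and 7.27% were lower without overlap, so 3 of 8 compares with 22.1% of all genes. Of the 8 members 6 had a positive difference, as did 67.6% of all genes. The median difference of the members was 0.38, beside 0.22 over all genes. In pool 3 these medians were -0.16 and -0.01, and 5 of 8 members lay below every marrow pool there, as did 26.7% of all genes, some by narrow margins.

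Lin28b, which encodes the RNA-binding protein that blocks let-7 maturation, had values of 5.74, 5.30 and 4.75 in lamina propria pools 1, 2 and 3, against 4.51, 4.70 and 4.345 in the bone marrow pools. All lamina propria pools lay above all marrow pools, but pool 3 exceeded marrow pool 2 only narrowly. The lamina propria mean was 5.26 ± 0.49 and the marrow mean was 4.52 ± 0.18 (SD, n = 3 each). They differed by 0.74 (95% interval 0.07 to 1.42, limma adjusted p = 0.356). Against the marrow mean the difference was 1.22 in pool 1, 0.78 in pool 2 and 0.23 in pool 3 (95% interval -0.32 to 0.78 for pool 3). Without pool 3, Lin28b passed at a difference of 1.00 (limma adjusted p = 0.0239), where 24.1% of all genes were called higher. The marrow mean lay above only 25.6% of the marrow means of all genes, a range in which positive differences of pools 1 and 2 were common.

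Lin28a, the paralogue active in early embryos, differed by 0.42 (95% interval -0.24 to 1.08) with overlap, and by -0.13 in pool 3. The list of LIN28 and let-7 processing genes held 13 measured genes, of which 0 passed in either direction. Their median difference was -0.61, and -0.13 in pool 3, beside 0.22 and -0.01 over all genes. The marrow means of the list ran from 5.89 to 11.35, so no single level range serves as its background. Among all genes the median difference was 0.30 at a marrow mean of 5 to 6, -0.06 at 6 to 7 and -0.75 over 7. Of the list, 3 genes lay lower without overlap, as did 7.27% of all genes, and the marrow means of these 3 were all over 7. Dgcr8, the partner of Drosha in cutting primary microRNAs, had 5.58, 5.60 and 7.52 in the lamina propria pools, against 7.93, 7.72 and 8.67 in the marrow pools, a difference of -1.87 (95% interval -3.16 to -0.59, limma adjusted p = 0.343). Tut4 (named Zcchc11 in older annotation), the uridyl transferase that LIN28A recruits to precursor let-7, differed by -1.41 (95% interval -2.54 to -0.28) and Trim25, a ubiquitin ligase described as a cofactor of that step, by -0.89 (95% interval -1.78 to -0.01), each with limma adjusted p = 0.356. In pool 3 these 3 genes lay 0.58, 0.59 and 0.54 below the marrow mean, less than over all pools.

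The let-7 genes themselves were also on the array, and their hairpin sequences were searched for the letters of a known LIN28 motif. All 12 let-7 hairpins listed here carry the same seed, bases 2 to 8 of the mature strand, by which a microRNA pairs with its targets. LIN28 proteins are known to bind a GGAG motif in the loop. A search of the stretch between the mature arms, 23 to 36 bases long and on the transcribed strand only, found GGAG in 9 of the 12 hairpins. The same search found it in 44 (6.95%) of 633 other mouse hairpins with both arms placed, whose stretches differ in length. The hairpins Mir7j and Mir7k were in neither set. A match is a description of the letters, not a binding measurement. The mature strands of the measured genes follow, from RefSeq (GRCm38.p6), 5′ to 3′ with the seed in capitals, to show that these strands differ only outside it.
let-7a: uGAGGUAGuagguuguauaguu
let-7c: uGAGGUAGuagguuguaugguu
let-7d: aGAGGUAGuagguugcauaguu
let-7e: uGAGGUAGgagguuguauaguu
let-7f: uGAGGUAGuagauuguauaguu
let-7g: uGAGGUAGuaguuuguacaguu
let-7i: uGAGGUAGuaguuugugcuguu
miR-98: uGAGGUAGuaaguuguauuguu

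The hairpins of the 4 let-7 genes described next are shown with the seed and the loop GGAG in capitals, beside Mir98, the measured member whose loop lacks these letters. In GRCm38.p6 they lie at chr9:41536716-41536811 (Mirlet7a-2, plus strand), chr13:48536012-48536114 (Mirlet7d, minus strand), chr13:48537829-48537917 (Mirlet7f-1, minus strand), chr9:106178840-106178927 (Mirlet7g, plus strand) and chrX:151913214-151913321 (Mir98, plus strand). Each is annotated as a microRNA gene.
Mirlet7a-2: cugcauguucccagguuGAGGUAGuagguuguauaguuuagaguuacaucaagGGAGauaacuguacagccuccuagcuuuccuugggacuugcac
Mirlet7d: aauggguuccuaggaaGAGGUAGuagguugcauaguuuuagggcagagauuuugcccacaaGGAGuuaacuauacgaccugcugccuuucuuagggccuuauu
Mirlet7f-1: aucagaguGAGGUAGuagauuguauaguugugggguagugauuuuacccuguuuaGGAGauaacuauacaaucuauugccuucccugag
Mirlet7g: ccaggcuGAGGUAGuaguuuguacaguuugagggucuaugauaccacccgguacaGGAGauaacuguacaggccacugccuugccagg
Mir98: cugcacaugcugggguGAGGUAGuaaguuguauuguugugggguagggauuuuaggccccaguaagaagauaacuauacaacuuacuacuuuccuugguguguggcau

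All 10 measured let-7 genes had a positive difference between the tissues, as did 67.6% of all genes. Their marrow means ran from 2.56 to 6.24, so no single level range serves as their background. Differences were positive for 95.4% of genes with a marrow mean under 3, 92.2% at 4 to 5 and 45.8% at 6 to 7. Higher without overlap were 5 of 10, and 14.8% of all genes. None passed over all genes. The median difference of the let-7 genes was 0.51, and the range was 0.18 to 0.93. The median was 0.22 over all genes, 0.36 over genes with a marrow mean of 4 to 5 and -0.06 at 6 to 7. Without pool 3 the median of the let-7 genes was 0.54, beside 0.33 over all genes. In pool 3 the median was 0.18, beside -0.01 over all genes, and 5 of 10 lay above every marrow pool, as did 24.8% of all genes. Probe sets on arrays of this kind read the region of the precursor or its primary transcript, not the mature microRNA. Levels were low, with medians over the list of 4.74, 5.06 and 4.81 in lamina propria pools 1, 2 and 3, against 4.15, 4.21 and 4.27 in the bone marrow pools.

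Mirlet7g had values of 4.49, 4.50 and 5.44 in lamina propria pools 1, 2 and 3, against 4.19, 4.19 and 4.44 in the bone marrow pools. Here pool 3 was the highest array, 1.16 above the marrow mean, and the difference over all pools was 0.53 (95% interval -0.17 to 1.23, limma adjusted p = 0.363). Mirlet7f-1 had 3.30, 3.13 and 3.46 in the lamina propria pools, against 2.62, 2.98 and 2.48 in the marrow pools, a difference of 0.60 (95% interval 0.09 to 1.12, limma adjusted p = 0.356). It is the middle gene of a cluster with Mirlet7a-1 and Mirlet7d that spans 2261 bases on chromosome 13. Mirlet7d had 5.28, 5.69 and 5.18 in the lamina propria pools, against 4.75, 4.67 and 4.46 in the marrow pools, a difference of 0.76 (95% interval 0.24 to 1.28, limma adjusted p = 0.343). All 3 genes of the cluster lay higher without overlap, and in pool 3 they lay 0.36 (Mirlet7a-1), 0.77 (Mirlet7f-1) and 0.55 (Mirlet7d) above the marrow mean. For Mirlet7a-1 the margin was narrow, with lamina propria pool 1 at 5.842 and marrow pool 2 at 5.830. Its difference was 0.27 (95% interval -0.20 to 0.73, limma adjusted p = 0.419). Clustered genes can share 1 primary transcript, so they are not independent of each other. Mirlet7a-2 gave a difference of 0.93 (95% interval 0.21 to 1.66) and missed the threshold (limma adjusted p = 0.356), and in pool 3 it lay 0.36 above the marrow mean. Mir98 differed by 0.18 with overlap, and by -0.02 in pool 3.

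**Figure D2:**
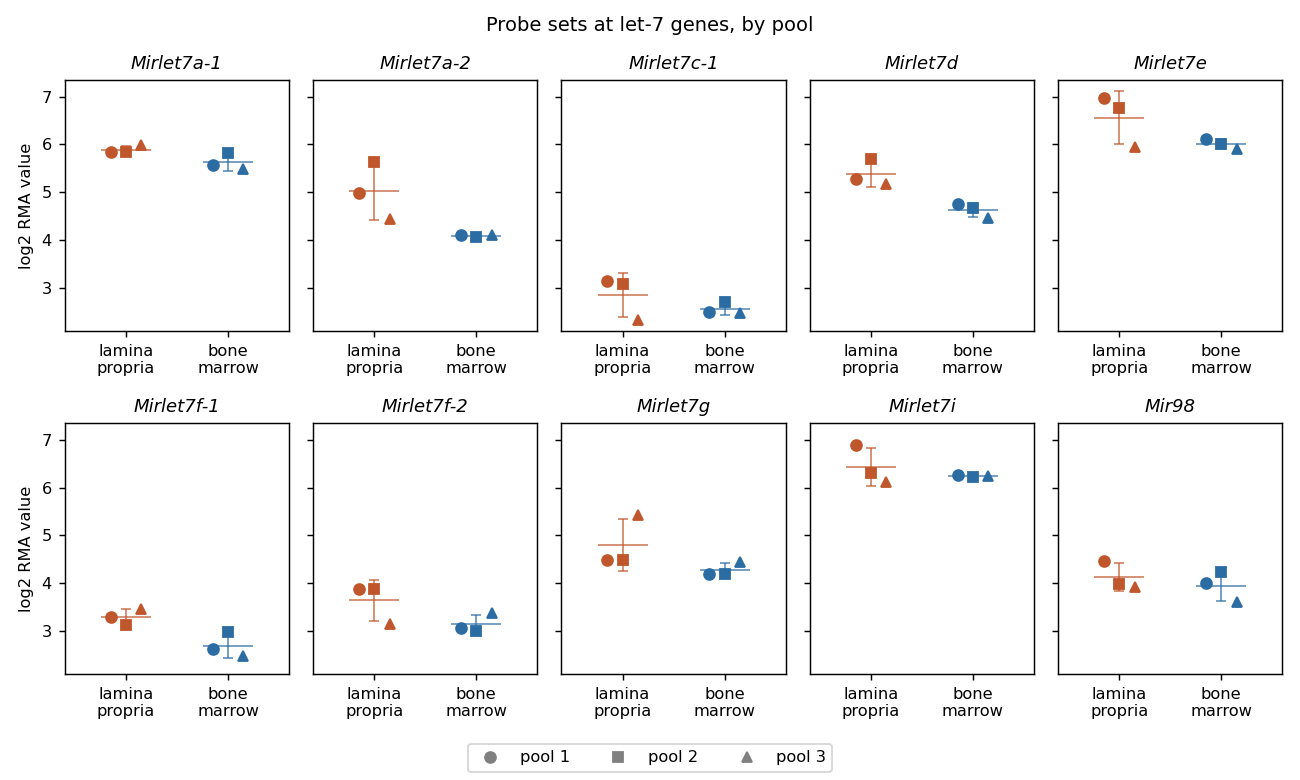
Log2 RMA values of the probe sets at 10 let-7 genes in the lamina propria pools (left in each panel) and the bone marrow pools (right), with horizontal bars at the means and whiskers of 1 SD (n = 3 each). The genes of the chromosome 13 cluster (Mirlet7a-1, Mirlet7d and Mirlet7f-1), Mirlet7a-2 and Mirlet7g lie above marrow in all 3 lamina propria pools. The margin is narrow for Mirlet7a-1, and for Mirlet7g in pools 1 and 2. Pool 3 is at 5.44 for Mirlet7g.

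Igf2bp1, the paralogue of Igf2bp3 that is also restricted largely to fetal tissue, did not share its pattern. Its brighter probe set had 5.73, 5.80 and 4.95 in lamina propria pools 1, 2 and 3, against 5.22, 5.08 and 5.003 in the bone marrow pools. Pools 1 and 2 were above marrow and pool 3 was just below it. The difference was 0.39 (95% interval -0.24 to 1.03, limma adjusted p = 0.404), and -0.15 in pool 3 alone. The second probe set of the gene gave 0.29 over all pools and -0.14 in pool 3, again with pools 1 and 2 above every marrow pool and pool 3 below.

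Hmga2, a chromatin protein of fetal stem cells and a let-7 target, had 6.58, 6.84 and 5.88 in lamina propria pools 1, 2 and 3, against 6.13, 6.16 and 5.88 in the bone marrow pools. The tissues overlapped, since pool 3 lay level with the lowest marrow pool. The difference was 0.37 (95% interval -0.29 to 1.04, limma adjusted p = 0.424), and -0.18 in pool 3 alone. Arid3a, a transcription factor that promotes fetal-type B cell formation downstream of Lin28b, had 6.61, 6.33 and 6.05 in the lamina propria pools, against 6.40, 6.36 and 6.42 in the marrow pools. Lamina propria pools lay above, just below and below the narrow marrow range. The difference was -0.06 (95% interval -0.56 to 0.45, limma adjusted p = 0.852), and -0.34 in pool 3 alone (95% interval -0.76 to 0.08). Its sign turned to 0.08 without pool 3.

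Bhlhe41, a transcription factor needed for B-1a cells, had 4.49, 3.87 and 3.90 in lamina propria pools 1, 2 and 3, against 3.41, 3.55 and 3.47 in the bone marrow pools. All lamina propria pools lay above all marrow pools, pool 3 included. The lamina propria mean was 4.09 ± 0.35 and the marrow mean was 3.47 ± 0.07 (SD, n = 3 each). They differed by 0.62 (95% interval 0.06 to 1.17, limma adjusted p = 0.356). In pool 3 alone it was 0.43 (95% interval -0.01 to 0.87), and 91.9% of all genes had a lower difference there. The level was low, with a marrow mean above 9.05% of the marrow means of all genes. Its paralogue Bhlhe40, which shares its E-box binding, had 4.94, 5.02 and 5.15 in the lamina propria pools, against 4.75, 4.88 and 4.71 in the marrow pools. That was also without overlap, at 0.25 over all pools (95% interval -0.19 to 0.70, limma adjusted p = 0.42) and 0.37 in pool 3.

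Zbtb32, a zinc finger repressor induced in activated lymphocytes and expressed in B-1 cells, had 6.995, 6.73 and 5.93 in lamina propria pools 1, 2 and 3, against 6.29, 6.04 and 6.03 in the bone marrow pools. Pools 1 and 2 were the highest arrays and pool 3 the lowest of all. The difference was 0.43 (95% interval -0.28 to 1.14, limma adjusted p = 0.407), and -0.19 in pool 3 alone. Cd5, a surface receptor that dampens antigen receptor signalling and defines B-1a cells but is also carried by T cells, had 5.83, 6.15 and 5.57 in the lamina propria pools, against 5.48, 5.73 and 5.59 in the marrow pools. The tissues overlapped, with a difference of 0.25 (95% interval -0.27 to 0.78, limma adjusted p = 0.471) and -0.03 in pool 3 alone.

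T cell markers moved with the tissues. All 14 measured genes had a positive difference, as did 67.6% of all genes and 80.3% to 94.8% of those with a marrow mean between 3 and 6, where most of the list lies. Higher without overlap were 8 of 14, and 14.8% of all genes. Their median level was 5.69, 5.60 and 5.13 in lamina propria pools 1, 2 and 3, against 4.82, 4.92 and 4.93 in the bone marrow pools, below the median of all genes except in pools 1 and 2. In pool 3, 9 of 14 lay above every marrow pool, as did 24.8% of all genes. Their part in the values of Cd5, Zbtb32, Ctla4 and Cd6 was not tested. Intestinal epithelium markers had a positive difference in 12 of 12. The share was 67.6% of all genes, and 80.3% to 94.8% of those with a marrow mean between 3 and 6, where most of this list lies too. The median of the list was 0.45, beside 0.22 over all genes and 0.30 to 0.36 at those marrow levels. In pool 3 the median was 0.30, beside -0.01 over all genes. In pool 3, 7 of 12 exceeded every marrow pool, as did 24.8% of all genes, and the part of these markers in the members' values was likewise not tested. For the other marker lists the median difference was 0.30 for natural killer and innate lymphoid cells (-0.04 in pool 3), -0.01 for macrophages and dendritic cells (0.01), 0.02 for granulocytes (-0.34), 0.47 for stroma and endothelium (0.04), 0.30 for erythroid cells (-0.18) and 0.29 for plasma cells (0.19).

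**Figure D3:**
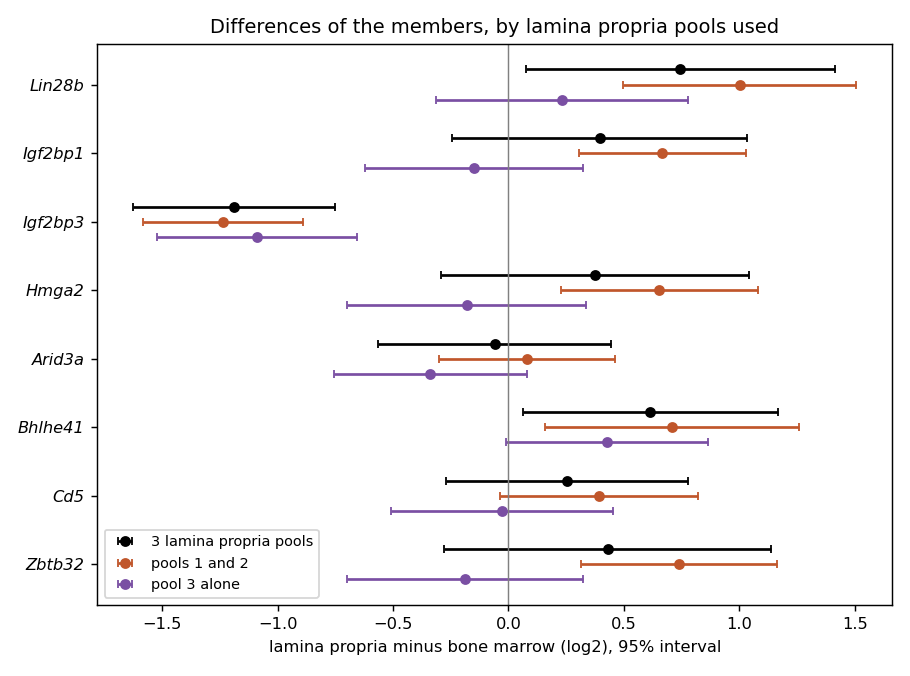
Log2 differences of the 8 members between lamina propria and bone marrow (positive where the lamina propria is higher), with 95% limma intervals, for all 3 lamina propria pools, for pools 1 and 2, and for pool 3 alone. For Igf2bp3 the 3 estimates lie between -1.24 and -1.09, whereas Igf2bp1, Hmga2, Cd5 and Zbtb32 have positive estimates from pools 1 and 2 and negative ones from pool 3.

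Without lamina propria pool 3, limma called 4 members higher (Lin28b, Igf2bp1, Hmga2 and Zbtb32) and 1 lower (Igf2bp3). In that comparison 24.1% of all genes were called higher and 12.1% lower. Of the 4 genes called higher, Lin28b had a difference of 0.23 in pool 3, and the other 3 lay below the marrow mean there.

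**Figure D4:**
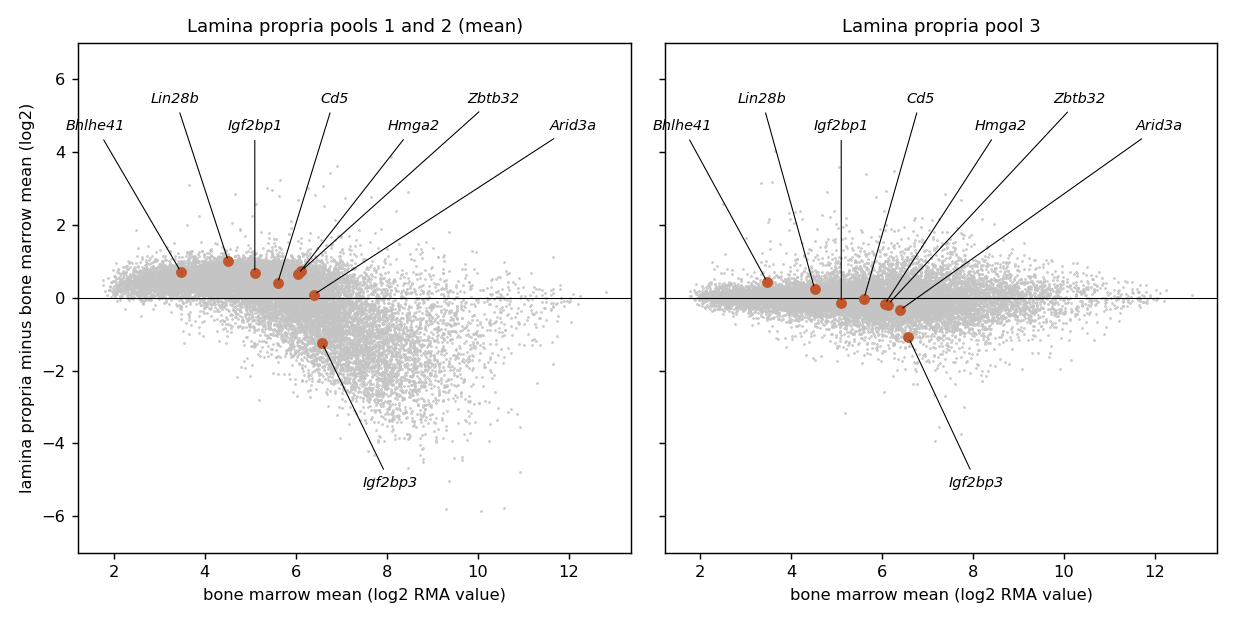
Difference of each gene from the bone marrow mean (log2) against the bone marrow mean, for the mean of lamina propria pools 1 and 2 (left) and for pool 3 (right), with all 19938 genes in grey and the 8 members in colour. In pools 1 and 2 the cloud bends upward at low and downward at high marrow levels, and in pool 3 it lies around 0 with Igf2bp3 at -1.09.

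Other genes linked to let-7 and fetal growth gave mixed differences. Of 17 measured, 0 passed, 5 lay higher and 4 lower without overlap (14.8% and 7.27% of all genes), and the median was -0.20, or 0.19 in pool 3. Insr, the insulin receptor, had 7.98, 6.07 and 7.78 in lamina propria pools 1, 2 and 3, against 9.09, 9.14 and 9.69 in the bone marrow pools. All lamina propria pools lay at least 1 log2 unit below all marrow pools, pool 3 included. The difference was -2.03 (95% interval -3.20 to -0.85, limma adjusted p = 0.301), and -1.52 in pool 3. Igf1r, the receptor of insulin-like growth factor 1, differed by -0.69 over all pools but by -0.05 in pool 3. Mycn, a transcription factor of the Myc family, had 6.73, 7.39 and 6.23 in the lamina propria pools, against 5.05, 5.45 and 5.75 in the marrow pools. Each lamina propria pool exceeded each marrow pool. The difference was 1.37 (95% interval 0.57 to 2.16, limma adjusted p = 0.304), and 0.81 in pool 3. Sox4, a transcription factor of B cell progenitors, differed by 0.59 (95% interval -0.00 to 1.19) and by 0.50 in pool 3.

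Among relatives of the members, 4 of 9 measured lay higher without overlap (14.8% of all genes) and 0 passed, with a median of 0.33, or 0.29 in pool 3, beside 0.22 and -0.01 over all genes. Arid3c, a paralogue of Arid3a, differed by 0.59 (95% interval 0.03 to 1.15) and by 0.31 in pool 3. Zbtb16, a zinc finger factor of innate-like lymphocytes, differed by 0.51 and 0.29, and Cd6, the receptor related to Cd5, by 0.51 and 0.18 on the same 2 measures.

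Further genes linked to B-1 cells numbered 18, of which 0 passed, 5 lay higher and 0 lower without overlap (14.8% and 7.27% of all genes). Of the 18, 11 had a positive and 7 a negative difference. The 7 all overlapped with marrow, among them Itgam (-0.70, and -0.34 in pool 3), Spn (-0.53 and -0.16) and Siglecg (-0.33 and 0.09). The median of the 18 was 0.31, and 0.12 in pool 3. Plac8 had the largest positive difference of the list, 1.78 (95% interval 0.09 to 3.47, limma adjusted p = 0.356), and 1.78 in pool 3. It overlapped with marrow, whose pools spread widely (8.31, 8.71 and 6.19). Ctla4, an inhibitory receptor of T cells that B-1a cells also express, had 5.79, 7.49 and 6.21 in lamina propria pools 1, 2 and 3, against 4.77, 4.76 and 4.77 in the bone marrow pools. The marrow pools were nearly identical and each lamina propria pool lay at least 1 log2 unit higher. The difference was 1.73 (95% interval 0.75 to 2.70, limma adjusted p = 0.299), and 1.44 in pool 3. Ahr, the aryl hydrocarbon receptor, differed by 0.56 (95% interval 0.12 to 1.00) and by 0.44 in pool 3, and Anxa2, a membrane-binding annexin, by 0.48 and 0.91. Fcrl5, an Fc receptor-like protein of B-1 and marginal zone cells, differed by 0.53 and by 0.15 in pool 3. In the list of follicular and adult-type B-2 genes 0 of 10 passed, and the median was 0.08 (0.01 in pool 3). Of the 10, 1 gene, Dntt, lay lower without overlap, as did 7.27% of all genes, and 0 lay higher. Dntt, the template-free polymerase of receptor joints that fetal B cell formation largely lacks, had a lamina propria mean of 10.70 ± 0.15 and a marrow mean of 11.22 ± 0.12 (SD, n = 3 each). Its difference of -0.51 (95% interval -0.97 to -0.05, limma adjusted p = 0.356) was -0.65 in pool 3. Genes with a marrow mean over 7, as Dntt has, had a median difference of -0.75 over all pools and -0.04 in pool 3.

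**Figure D5:**
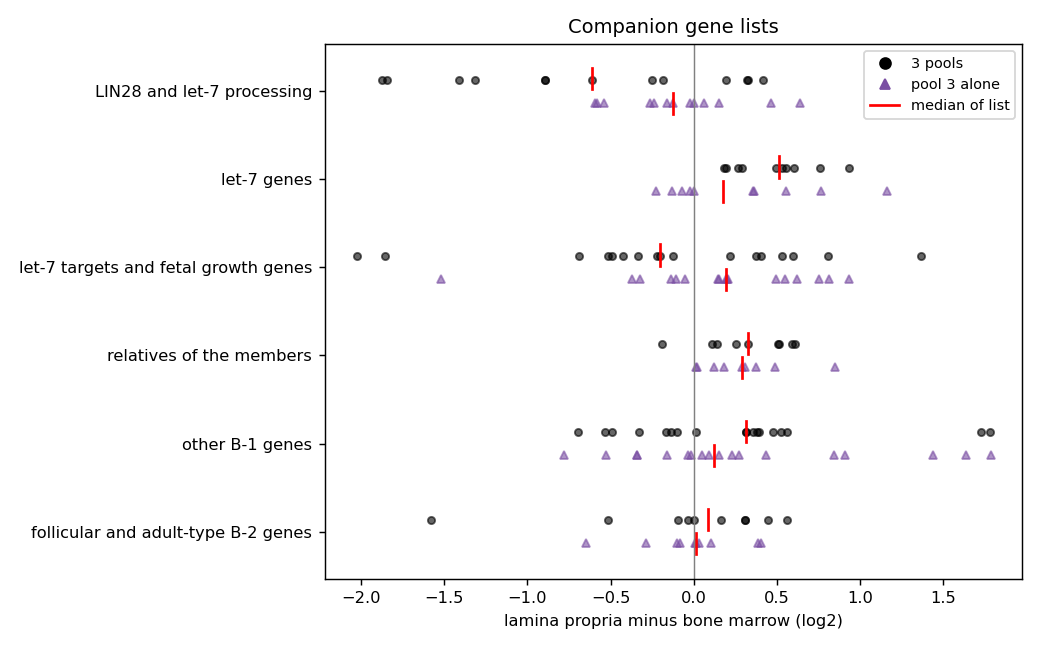
Differences of single genes in 6 lists related to the members (log2, positive where the lamina propria is higher), over all 3 lamina propria pools (circles) and for pool 3 alone (triangles), with red bars at the list medians. The let-7 genes have a median of 0.51 over all pools and 0.18 in pool 3, and the LIN28 and let-7 processing genes of -0.61 and -0.13.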

How the data were processed

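The deposited log2 values are RMA values. The submitters' processing notes name RMA and Affymetrix Expression Console 1.3.0.187. The settings and the genome build were not stated there. RMA usually equalises array distributions, but the deposited ones were not alike (interquartile ranges of 1.94 to 2.47). Per the labels' protocols, 4.5 to 47 ng of RNA were amplified before biotin labelling.

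Values were used as deposited. Of 35556 probe sets, 21789 had exactly 1 symbol. A gene with several probe sets (999 of 19938) was represented by the brightest over all arrays. The tissues were compared by limma 3.58.1 in R 4.3.3 (lmFit and eBayes, two-sided, without a block), p-values adjusted by Benjamini-Hochberg over all genes, and 95% intervals from the moderated variances. The fit was tested on simulated data.

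The members and lists were chosen with earlier results of these data known. All members were named. From each of 6 companion lists, up to 4 genes without overlap and with the largest difference were named. Lin28a, Mirlet7a-1, Mir98, Itgam, Spn, Siglecg, Plac8 and Cd22 were added after their values were seen. Cd79b, Pax5 and Ighm of the B lineage list were also named outside that rule. Marker lists numbered 9. Alternatives were leaving out arrays, a block for the pool number, leaving out dim genes, 2 scalings, robust variances with a trend, array weights, other choices among probe sets and a threshold of 0.01. Whether equal pool numbers pair the samples was not settled. Deviations of equal-numbered pools from their tissue means correlated across genes at 0.131, 0.0513 and 0.226. The best-matching marrow pool was pool 1 for lamina propria pools 1 and 2, and pool 3 for pool 3. With 3 pools per tissue, such correlations cannot decide the question. Sequences came from RefSeq, with all 10 measured let-7 genes matched. Figures were drawn with matplotlib 3.10.9.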

Additional observations from a re-analysis of the deposited data

How the results depend on the processing

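Igf2bp3 kept its negative difference under all 15 alternatives, from -1.24 to -1.09, with limma adjusted p from 0.0101 to 0.575. It passed the threshold under 2 of them, without lamina propria pool 3 and with array weights (adjusted p = 0.0152). These 2 settings are alike, since the array weights gave pool 3 the lowest weight, 0.153, against 0.705 to 2.80 for the other arrays. The tissues did not overlap for Igf2bp3, so leaving out or weighting arrays could not turn its sign. Only the 2 scalings could have done so, and they gave -1.24 (centring on array medians) and -1.18 (quantile normalization). Lin28b and Bhlhe41 kept a positive difference under all alternatives that gave a value, 14 each, from 0.23 to 1.00 and from 0.35 to 0.75. Their tissues did not overlap either, so again only the 2 scalings could have turned these signs. With array weights Lin28b, Bhlhe41 and Zbtb32 passed as well. The filter on dim genes left out Lin28b, Igf2bp1 and Bhlhe41.

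In pool 3 alone, signs turned for Igf2bp1 (-0.15), Hmga2 (-0.18), Cd5 (-0.026) and Zbtb32 (-0.19), and the members' median was -0.165. Arid3a turned to 0.172 with quantile normalization and 0.0886 with array weights, and ran from -0.199 to 0.0802 with 1 array left out, positive without lamina propria pool 3. With 1 array left out, the members' median ran from 0.206 to 0.66.

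Over all genes, leaving out 1 array gave 0 to 4806 genes higher and 0 to 2416 lower, the highest counts without lamina propria pool 3, and 0 to 4 members higher and 0 to 1 lower. Array weights gave 3368 genes higher and 2218 lower, with 3 members higher and 1 lower. Trend with robust variances gave 1 higher and 39 lower, with no member. With the pool number as a replicate block, 2 genes were called higher and 14 lower, with no member (Igf2bp3, adjusted p = 0.0813). The causes were not tested. Centring on array medians and quantile normalization moved the median difference of all genes from 0.22 to 0.17 and 0.12, and among the brighter genes that passed the filter on dim genes it was -0.049.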
